A study of Homo sapiens with 16 samples.

Results

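The HOX cluster genes were examined across every peak list of a chromatin immunoprecipitation sequencing (ChIP-seq) study in the established cell line HCT116, derived from a human colorectal tumour. The members are the 39 protein-coding genes whose symbol is HOXA, HOXB, HOXC or HOXD followed by digits, out of 19974 protein-coding genes in RefSeq on GRCh38.p14. A gene was counted as having a peak when a peak overlapped its body extended by 1 kb. The members lie in 4 clusters: 11 HOXA genes on chromosome 7 (chr7:27091993-27201091 with the extension), 10 HOXB genes on chromosome 17 (chr17:48527526-48729750), 9 HOXC genes on chromosome 12 (chr12:53937831-54057030) and 9 HOXD genes on chromosome 2 (chr2:176086487-176191907). Together the clusters span 536 kb.

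The study asked how heterochromatin relates to ARID1A, which is a DNA-binding subunit of a SWI/SNF remodelling complex. Its 16 samples fall into 3 cell states: shARID1A cells, which carry a short hairpin RNA against ARID1A; shCtrl cells, which carry a control hairpin; and HCT116 cells with no hairpin named in their label, called unmodified here. Chromatin was precipitated with antibodies against H3K9me3 (trimethylated lysine 9 of histone H3), TRIM28 and SETDB1 in shARID1A cells. The same antibodies and ARID1A were used in shCtrl cells, and H3K9me3, TRIM28 and ARID1A in unmodified cells. That makes 10 libraries, 1 per group, and each has a peak list called against input chromatin and another called against IgG. No list of ARID1A from the knockdown cells was used here, so the loss of ARID1A cannot be checked in these data. Samples titled CTR were read as the shCtrl cells of the series' design text. Whether the hairpin lines are clones or pools is not given in the sources used here.

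HOX genes encode homeodomain transcription factors that give cells along the head-to-tail axis their identity, and their order along each cluster mirrors the order in which they are used in the body. In cells that do not use them they are classically held silent by Polycomb complexes, which lay down H3K27me3, while trithorax complexes oppose that silencing. H3K9me3 is the mark of constitutive heterochromatin and of silenced repeats. SETDB1 is a methyltransferase that writes it, and TRIM28 is the corepressor that brings SETDB1 to sites chosen by zinc finger proteins. In the colon, posterior members such as HOXB13 are known markers of the distal gut.

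Promoter sequences are shown for the HOX genes whose start carried the peaks described first: those with a strong peak (q of at most 0.05) against input, and HOXD8, where an ARID1A peak covered most of the window. Each is the 250 bases before the RefSeq start (GRCh38.p14, read 5′ to 3′ on the gene's strand), with the bases under the peak in capitals. HOXA9 (chr7:27165538-27165787, minus strand) and HOXA11 (chr7:27185233-27185482, minus strand) are shown with the shCtrl SETDB1 peak, HOXA10 (chr7:27179862-27180111, minus strand) with the shARID1A H3K9me3 peak, and HOXD8 (chr2:176129455-176129704, plus strand) with the shCtrl ARID1A peak.
HOXA9: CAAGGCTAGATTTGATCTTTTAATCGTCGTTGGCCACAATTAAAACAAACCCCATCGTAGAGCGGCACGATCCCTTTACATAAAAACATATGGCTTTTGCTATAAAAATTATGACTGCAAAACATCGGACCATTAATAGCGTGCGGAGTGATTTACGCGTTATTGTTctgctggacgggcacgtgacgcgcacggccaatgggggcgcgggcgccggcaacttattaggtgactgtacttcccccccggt
HOXA10: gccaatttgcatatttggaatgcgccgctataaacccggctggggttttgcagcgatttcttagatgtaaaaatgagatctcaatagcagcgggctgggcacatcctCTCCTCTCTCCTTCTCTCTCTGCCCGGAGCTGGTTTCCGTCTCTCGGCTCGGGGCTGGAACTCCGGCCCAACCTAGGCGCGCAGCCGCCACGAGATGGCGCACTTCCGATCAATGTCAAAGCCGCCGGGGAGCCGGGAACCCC
HOXA11: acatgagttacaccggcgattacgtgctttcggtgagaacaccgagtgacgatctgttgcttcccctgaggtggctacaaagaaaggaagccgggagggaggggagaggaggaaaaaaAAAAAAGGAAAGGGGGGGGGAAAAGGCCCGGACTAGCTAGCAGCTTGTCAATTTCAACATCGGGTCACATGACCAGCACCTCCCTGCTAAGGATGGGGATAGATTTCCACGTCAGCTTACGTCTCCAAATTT
HOXD8: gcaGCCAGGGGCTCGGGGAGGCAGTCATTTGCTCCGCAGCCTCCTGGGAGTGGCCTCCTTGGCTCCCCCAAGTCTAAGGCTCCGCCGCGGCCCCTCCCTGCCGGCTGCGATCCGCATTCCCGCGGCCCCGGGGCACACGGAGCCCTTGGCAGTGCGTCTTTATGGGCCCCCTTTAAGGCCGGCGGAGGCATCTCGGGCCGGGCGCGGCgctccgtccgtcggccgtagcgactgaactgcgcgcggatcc
The peak covered 167 of the 250 bases at HOXA9, 143 at HOXA10, 132 at HOXA11 and 205 at HOXD8. HOXD8 had the highest GC content of these windows, 72.4%, with 28 CpG dinucleotides, against 58.8% and 19 at HOXA10, 51.6% and 11 at HOXA11 and 48.8% and 20 at HOXA9.

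A peak's height is given as the authors' fold enrichment, the pileup at its summit over the local background. Lists held between 11374 peaks (unmodified H3K9me3 against input) and 314688 peaks (shCtrl ARID1A against IgG), all of them called down to a p of about 0.05. For that reason each count stands beside the share of all protein-coding genes with a peak in the same list. HOX genes are short, with a median length of 3785 bp against 24170 bp for all protein-coding genes. The share among the 13244 genes no longer than the longest HOX gene, called genes of similar length here, is therefore given too. Their median of 12434 bp is still above that of HOX genes, so length is only partly matched. What part length has in the remaining differences was not tested. Sequencing depth was not derived. With 1 library per group there is no test between cell states and no p-value; intervals are exact 95% Clopper-Pearson or Poisson intervals and cover counting error only.

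Every one of the 39 genes had a peak in at least 1 of the 20 lists, as did 95.7% of all protein-coding genes. Against input 27 of 39 had one in at least 1 list (69.2%, 52.4 to 83.0), where 87.9% of all genes and 82.2% of genes of similar length did, and 12 had none. HOXA3, which acts in the development of the pharyngeal glands in mouse and has the longest body of the members, had a peak in 17 lists. HOXA10 had one in 15 lists, while HOXD1 and HOXD9 had one in 1 list each. A strong peak in any list was seen at 23 genes (59.0%, 42.1 to 74.4; 70.1% of all genes and 59.6% of genes of similar length). Against input it was seen at 14 (35.9%, 21.2 to 52.8; 49.3% of all genes and 35.8% of genes of similar length), so both counts lay at the level of genes of similar length. Member bodies are not separate: the body of HOXA3 spans HOXA4, HOXA5 and HOXA6, that of HOXB3 spans HOXB4, HOXD3 overlaps HOXD4, and HOXC4, HOXC5 and HOXC6 share a start, so 1 peak can give a hit to several of them.

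**Figure D1:**
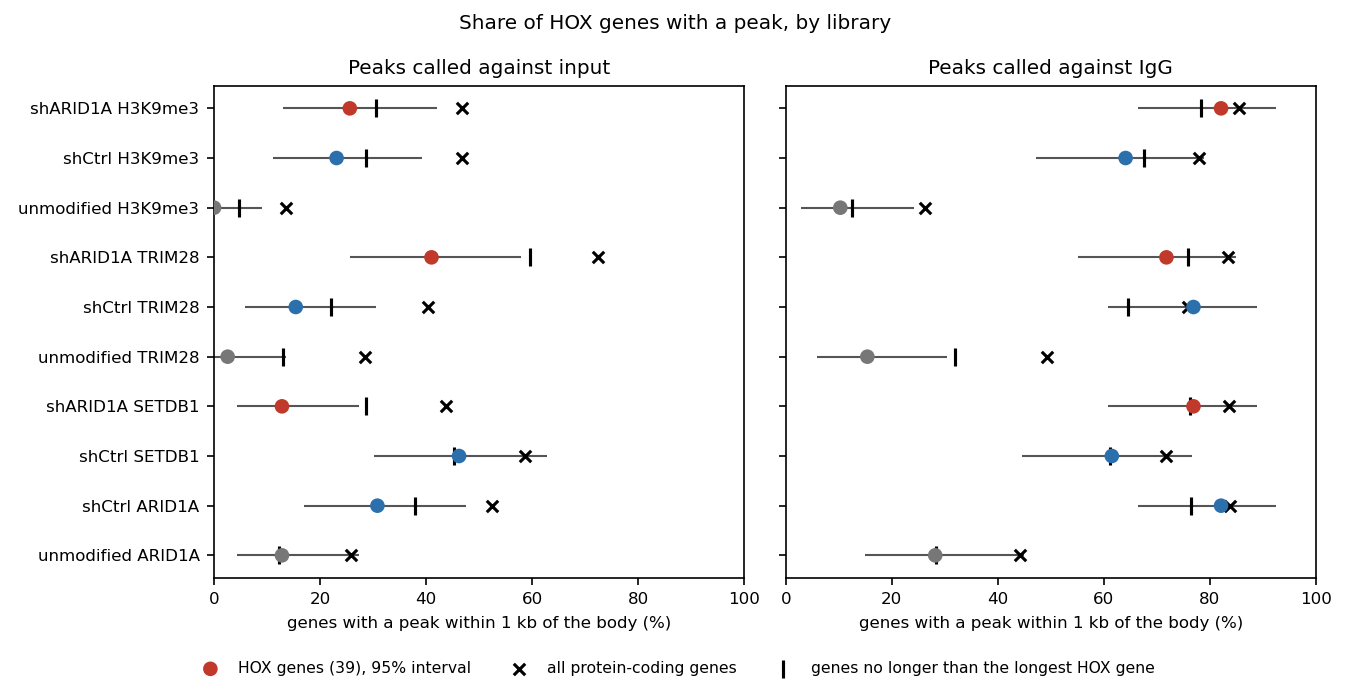
Share of genes with a peak (x axis, %) in each of the 10 libraries (rows), for lists called against input (left) and against IgG (right). Circles are the 39 HOX genes with 95% Clopper-Pearson intervals (red shARID1A, blue shCtrl, grey unmodified), crosses all protein-coding genes and bars the genes no longer than the longest HOX gene; against input the circle lies left of the cross in every library.

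SETDB1 gave the members' tallest peaks. Against input, 5 of 39 HOX genes (12.8%, 4.30 to 27.4) had a SETDB1 peak in shARID1A cells, beside 43.7% of all protein-coding genes, against 18 of 39 (46.2%, 30.1 to 62.8) in shCtrl cells, beside 58.7% of all genes. Among genes of similar length the shares were 28.6% in shARID1A and 45.2% in shCtrl, so the shCtrl share of HOX genes lay at that background and the shARID1A share below it. HOXA3, HOXA10, HOXA13 and HOXB7 had a peak in both states, HOXA7 in shARID1A alone and 14 genes in shCtrl alone. The order turned round in the lists called against IgG, with 30 of 39 in shARID1A (83.6% of all genes) against 24 of 39 in shCtrl (71.7% of all genes).

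Strong SETDB1 peaks were at fewer HOX genes in shARID1A than in shCtrl cells under both controls. Against input no HOX gene had one in shARID1A cells, where 3.91% of all genes did, against 12 in shCtrl cells, where 43.5% of all genes did. Against IgG there were 8 in shARID1A cells (19.8% of all genes) and 21 in shCtrl cells (58.1% of all genes). HOXC13, a regulator of hair keratin genes, was the member with a strong SETDB1 peak in shARID1A alone, with a fold enrichment of 4.10 against IgG. These shares follow those of all genes in the same lists.

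The tallest member peak of the study lay inside HOXA3. At this site shARID1A SETDB1 had no peak against input and a fold enrichment of 2.28 against IgG, while shCtrl SETDB1 reached 9.73 against input (chr7:27115067-27115521, within the top 1.76% of that list by fold) and 12.6 against IgG. It also carried a shARID1A H3K9me3 peak of 7.28 against IgG, which was strong, and of 2.58 against input, and shCtrl H3K9me3 peaks of 2.15 and 2.89. A shCtrl ARID1A peak at the edge of the site, which did not overlap the shCtrl SETDB1 peak, measured 4.52 in both lists and was strong against IgG. Of the libraries, all 3 from unmodified cells had no peak there.

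The second tallest site was inside the shared body of HOXC4 and HOXC5 (chr12:54032448-54032989), with no SETDB1 peak in shARID1A, against 7.28 in the input list and 9.80 in the IgG list of shCtrl SETDB1. HOXC4 and HOXC5 pattern the neck and upper trunk. A further HOXA3 site (chr7:27135977-27136776) had no SETDB1 peak in shARID1A, while shCtrl SETDB1 measured 6.22 against input and 4.72 against IgG.

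At the other central and posterior members the shCtrl SETDB1 peaks against input were lower than at these sites, while against IgG several, HOXA9 and HOXB6 among them, were taller than that of the further HOXA3 site. HOXA9, a homeodomain factor known for its role in leukaemia with MEIS1, had a shARID1A SETDB1 peak of 3.19 against IgG and none against input at the site where shCtrl SETDB1 had 3.97 against input and 9.10 against IgG. HOXA11, which with its paralogs is needed for kidney development in mouse, had no SETDB1 peak at its start site in shARID1A, against 3.62 in the input list and 4.80 in the IgG list of shCtrl. HOXA13, a gene of limb and hindgut development, had peaks in both states at 1 site, with 3.18 against input and 3.12 against IgG in shARID1A, and 3.56 against input and 3.47 against IgG in shCtrl. A site in the HOXD8 body had no SETDB1 peak in shARID1A, and 4.29 against input and 4.40 against IgG in shCtrl.

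In the HOXB cluster, shARID1A SETDB1 had no peak against input at the sites that were strong against input in shCtrl. At HOXB3 shARID1A SETDB1 measured 3.09 against IgG, while shCtrl SETDB1 measured 3.23 against input and 6.20 against IgG. At neighbouring sites of HOXB6 shARID1A SETDB1 measured 2.79 and 3.49 against IgG, and shCtrl SETDB1 5.08 and 6.65 against IgG and 3.53 and 3.02 against input. Between HOXB7 and HOXB8 shARID1A SETDB1 had no peak in either list, and shCtrl SETDB1 measured 3.81 against input and 5.95 against IgG. HOXB7 and HOXB8 are neighbours of the central part of the cluster. HOXB7 itself held a shARID1A SETDB1 site nearby, with 2.51 against input and 4.56 against IgG, where shCtrl SETDB1 had no peak. Close to the shared HOXC start, in HOXC6, a shARID1A SETDB1 peak of 4.10 against IgG was strong, and so were shCtrl SETDB1 peaks of 3.39 against input and 3.72 against IgG. Strong shCtrl SETDB1 peaks against IgG alone lay at HOXA10 (4.37), HOXB9 (3.95), HOXB13 (4.15), HOXC9 (4.77), HOXC10 (4.37), HOXD10 (3.64), HOXD11 (3.97) and HOXD13 (3.64). That of HOXA7 (3.93) lay outside its body, within 1 kb of both HOXA7 and HOXA3 and over a HOXA3 start.

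Individual SETDB1 peaks called against input were seldom found again. Of 37 shCtrl SETDB1 peaks in the clusters called against input, 1 (2.70%, 0.0684 to 14.2) overlapped a shARID1A SETDB1 peak, where 4.80% of the whole list did. Against IgG 31 of 65 did (47.7%, 35.1 to 60.5), where 24.3% of the whole list did. Between the cell states the input and IgG libraries differ as well as the precipitated one, and these sources of difference cannot be told apart.

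**Figure D2:**
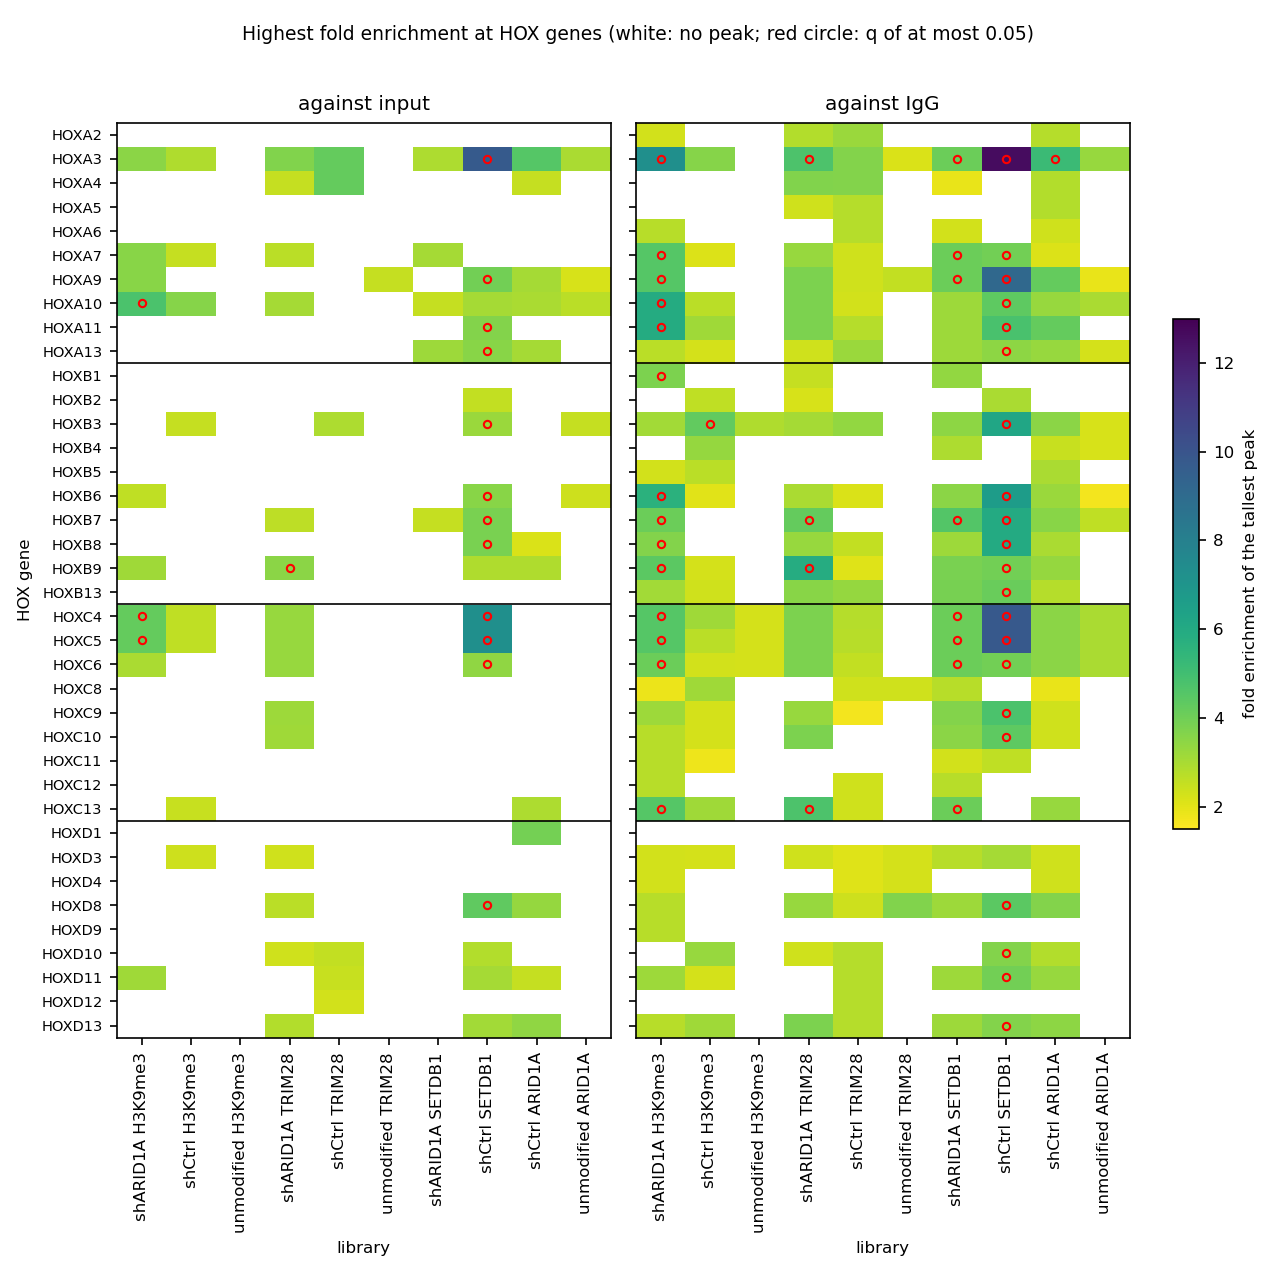
Highest fold enrichment (colour) at the HOX genes reported by name (rows, by cluster) in each library (columns), against input (left) and IgG (right); white cells have no peak and red circles mark a q of at most 0.05. The darkest cell is shCtrl SETDB1 at HOXA3, 12.6 against IgG, and the unmodified columns hold no circle.

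H3K9me3 peaks were few at HOX genes against input. They were found at 10 of 39 genes in shARID1A cells (25.6%, 13 to 42.1; 46.8% of all genes), against 9 of 39 in shCtrl cells (23.1%, 11.1 to 39.3; 46.8% of all genes). Genes of similar length had a peak in 30.6% and 28.6% of cases in these lists. HOXA3, HOXA7, HOXA10, HOXC4 and HOXC5 had a peak in both states. HOXA9, HOXB6, HOXB9, HOXC6 and HOXD11 had one in shARID1A alone, and those with one in shCtrl alone included HOXB3, HOXC13 and HOXD3. Against IgG the counts were 32 in shARID1A (85.4% of all genes) and 25 in shCtrl (77.9% of all genes).

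Strong H3K9me3 peaks, too, were at more HOX genes in shARID1A than in shCtrl cells, as they were among all genes. Against IgG 14 HOX genes had one in shARID1A cells (35.9%, 21.2 to 52.8; 48.3% of all genes and 36.7% of genes of similar length), against 1, HOXB3, in shCtrl cells (2.56%, 0.0649 to 13.5; 22.8% of all genes and 11.3% of genes of similar length). Both intervals take in the share of genes of similar length. Against input 3 had one in shARID1A (17.4% of all genes) and none in shCtrl (11.7% of all genes). The 14 genes were HOXA3, HOXA7, HOXA9, HOXA10, HOXA11, HOXB1, HOXB6, HOXB7, HOXB8, HOXB9, HOXC4, HOXC5, HOXC6 and HOXC13, which takes in no HOXD gene.

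HOXA10, which patterns the uterus in mouse, carried the tallest H3K9me3 peak against input. At its start (chr7:27179736-27180004) shARID1A H3K9me3 measured 4.76 against input and 5.91 against IgG, while shCtrl and unmodified H3K9me3 had no peak there. The peak ranked within the top 9.97% of its list by fold. The other strong input peak of shARID1A H3K9me3 lay inside the HOXC4 and HOXC5 bodies (chr12:54034282-54034546), with 4.22 against input and 4.55 against IgG, and no shCtrl H3K9me3 peak was called there. HOXA7 and HOXA9 each had 3.56 against input and 4.55 against IgG in shARID1A, at sites close to their starts with no H3K9me3 peak in shCtrl.

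Further shARID1A H3K9me3 peaks that were strong against IgG measured 3.64 to 4.55 inside HOXA11, 5.67 at HOXB6, 4.09 at HOXB7, 3.64 at HOXB8, 3.64 and 4.38 at HOXB9, 3.76 at HOXB1 and 4.55 at HOXC13. At a HOXB3 site (chr17:48580352-48580660) there was no shARID1A H3K9me3 peak, and the shCtrl H3K9me3 peak was 4.27 against IgG. Against input shCtrl H3K9me3 was highest at HOXA10 (3.58) and measured 2.89 at HOXA3, neither of them strong. Of 20 shCtrl H3K9me3 peaks in the clusters against input, 2 (10.0%, 1.23 to 31.7) were found again in shARID1A, where 3.65% of the whole list was; against IgG it was 22 of 66 (33.3%, 22.2 to 46.0), where 13% of the whole list was.

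TRIM28 peaks were found at more HOX genes in shARID1A cells against input and not against IgG. Against input 16 of 39 genes had one in shARID1A (41.0%, 25.6 to 57.9; 72.4% of all genes) against 6 of 39 in shCtrl (15.4%, 5.86 to 30.5; 40.4% of all genes). Genes of similar length reached 59.5% in shARID1A and 22.1% in shCtrl, so both HOX counts lay below them, that of shCtrl with an interval that takes in the background. Against IgG the counts were 28 in shARID1A (83.4% of all genes) and 30 in shCtrl (75.9% of all genes). The shARID1A list against input held 203714 peaks and the shCtrl list 70447.

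HOXA3, HOXA4 and HOXD10 had a TRIM28 peak against input in both states. In shARID1A alone the genes included HOXA7, HOXA10, HOXB7, HOXB9, HOXC4, HOXC5, HOXC6, HOXC9, HOXC10, HOXD3, HOXD8 and HOXD13, and in shCtrl alone HOXB3, HOXD11 and HOXD12. HOXB9 (chr17:48625480-48625764) was the member with a strong TRIM28 peak against input, 3.52 in shARID1A with 5.88 against IgG, and no TRIM28 peak at that site in shCtrl. So 1 gene in shARID1A (3.88% of all genes) and none in shCtrl (0.0350% of all genes) passed that threshold against input. Against IgG it was 4 in shARID1A (10.4% of all genes), namely HOXA3, HOXB7, HOXB9 and HOXC13, and none in shCtrl (0.741% of all genes).

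In shARID1A TRIM28 the highest member peaks against input were 3.69 at HOXA3, 3.52 at HOXB9 and 3.26 at HOXC4. The tallest of shCtrl TRIM28 lay in the HOXA3 body within 1 kb of HOXA4 (chr7:27127444-27127723), with a fold enrichment of 4.20 that placed it in the top 0.229% of its list, yet its q was 1. The next member with a peak of its own was HOXB3, with 2.93, below a further peak inside HOXA3 of 2.98. Of 13 shCtrl TRIM28 peaks in the clusters against input 2 (15.4%, 1.92 to 45.4) were found again in shARID1A, where 5.57% of the whole list was. Against IgG it was 7 of 75 (9.33%, 3.84 to 18.3), where 7.23% of the whole list was.

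ARID1A was measured in shCtrl and unmodified cells. Against input 12 of 39 HOX genes had a peak in shCtrl (30.8%, 17 to 47.6; 52.4% of all genes), against 5 of 39 in unmodified cells (12.8%, 4.30 to 27.4; 25.8% of all genes). Against IgG the counts were 32 in shCtrl (83.8% of all genes) and 11 in unmodified cells (44.2% of all genes). HOXA3, HOXA9 and HOXA10 had a peak against input in both. Among genes of similar length the shares against input were 37.8% in shCtrl and 12.3% in unmodified cells, within the intervals of the HOX shares.

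HOXA3 had the tallest ARID1A peaks of the members, with 6 peaks against input up to 4.52 in shCtrl, against 3 peaks up to 2.95 in unmodified cells. Its 2 tallest shCtrl ARID1A peaks, 4.52 (chr7:27115727-27115973) and 4.34 (chr7:27151294-27151710), ranked within the top 0.438% and 0.595% of the list by fold, and neither reached a q of 0.05 against input. Against IgG they measured 4.52 and 5.16 and were strong. HOXD1 followed with 3.90 in shCtrl against input, at the edge of its 1 kb flank, and HOXD13, mutated in a human limb malformation, with 3.39. At HOXD8 the shCtrl ARID1A peak in the promoter shown above measured 3.32 and a shARID1A TRIM28 peak overlapping it 2.70, both against input and neither strong. A strong ARID1A peak was found at no HOX gene against input in shCtrl (0.0851% of all genes) or unmodified cells (1.96% of all genes). Against IgG it was found at 1, HOXA3, in shCtrl (7.60% of all genes) and none in unmodified cells (2.0% of all genes).

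shCtrl cells had peaks at more HOX genes, and at more of all genes, than unmodified cells for H3K9me3, TRIM28 and ARID1A. Against input H3K9me3 had a peak at the 9 genes in shCtrl cells given above, and at no HOX gene in unmodified cells (13.6% of all genes; 4.78% of genes of similar length), a share of up to 9.03% by its interval, which takes in that of genes of similar length. Against IgG it was 25 genes in shCtrl and 4 in unmodified cells, HOXB3 with 2.86 and HOXC4, HOXC5 and HOXC6 with 2.23 (26.3% of all genes and 12.5% of genes of similar length). TRIM28 had a peak against input at 6 genes in shCtrl and at 1 in unmodified cells (28.4% of all genes and 13% of genes of similar length), HOXA9 with 2.51. Against IgG it was 30 in shCtrl and 6 in unmodified cells (49.2% of all genes and 32.0% of genes of similar length). No HOX gene had a strong peak in unmodified cells: the share of all genes that did was 0.0100% for H3K9me3 and 0.0250% for TRIM28 against input, and 0.0501% for H3K9me3 and 0.0601% for TRIM28 against IgG. None of the 20 shCtrl H3K9me3 peaks or the 13 shCtrl TRIM28 peaks in the clusters overlapped an unmodified peak of the same antibody against input, where 0.717% and 2.21% of the whole lists did.

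Counted by length of DNA rather than by gene, the density of peaks in the clusters was set against that of the genome in each list. Against input shARID1A SETDB1 had 1.87 peaks per 100 kb in the clusters and 1.47 over the genome, a ratio of 1.27 (0.610 to 2.34), and shCtrl SETDB1 6.90 and 2.97, a ratio of 2.33 (1.64 to 3.21). shCtrl SETDB1 was the one input list whose interval lay above 1. Counted by gene, the same list had a peak at 46.2% of HOX genes, 58.7% of all genes and 45.2% of genes of similar length. The genome's density also takes in DNA outside genes, and a density matched for genes was not tested. The ratio was 1.23 (0.672 to 2.06) for shARID1A H3K9me3 and 1.08 (0.662 to 1.67) for shCtrl H3K9me3. It was 0.980 (0.700 to 1.33) for shARID1A TRIM28, 0.921 (0.490 to 1.57) for shCtrl TRIM28 and 1.28 (0.853 to 1.85) for shCtrl ARID1A. Against IgG the ratios were 2.66 for shARID1A H3K9me3, 1.45 for shCtrl H3K9me3, 2.01 for shARID1A TRIM28, 1.42 for shCtrl TRIM28, 2.27 for shARID1A SETDB1, 2.84 for shCtrl SETDB1 and 2.25 for shCtrl ARID1A. The intervals of these 7 ratios lay above 1. In unmodified cells the ratio against input was 0 for H3K9me3 (up to 1.62), 0.606 (0.165 to 1.55) for TRIM28 and 1.69 (0.809 to 3.10) for ARID1A. Against IgG it was 0.643 (0.133 to 1.88) for unmodified H3K9me3, 1.03 (0.561 to 1.72) for unmodified TRIM28 and 2.38 (1.54 to 3.51) for unmodified ARID1A.

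The clusters differ in length, with 109 kb for HOXA, 202 kb for HOXB, 119 kb for HOXC and 105 kb for HOXD. Of the SETDB1 peaks against input, 5 lay in HOXA, 1 in HOXB, 3 in HOXC and 1 in HOXD in shARID1A cells, against 13, 14, 2 and 8 in shCtrl cells. Per 100 kb and in the same order this was 4.58, 0.494, 2.52 and 0.949 in shARID1A cells, with intervals that all overlap, against 11.9, 6.92, 1.68 and 7.59 in shCtrl cells. Of the shCtrl densities against input, those of HOXA (6.34 to 20.4) and HOXC (0.203 to 6.06) had intervals that did not overlap. Against IgG the shCtrl intervals of HOXA (11.2 to 28.3) and HOXC (5.81 to 18.6) did overlap. The SETDB1 counts against IgG were higher in shARID1A in each cluster, and so was the total of the list, 276586 peaks against 114369 in shCtrl. In the same order they were 37, 45, 26 and 18 in shARID1A, against 20, 22, 13 and 10 in shCtrl. Against input TRIM28 had 9 peaks in HOXA, 8 in HOXB, 13 in HOXC and 10 in HOXD in shARID1A cells. In shCtrl cells it had 5, 4, 0 and 4. The TRIM28 densities were 8.25, 3.96, 10.9 and 9.49 per 100 kb in shARID1A cells, against 4.58, 1.98, 0 and 3.79 in shCtrl cells, with intervals that overlap between clusters in both states. In HOXC the TRIM28 counts against IgG were 25 in shARID1A and 13 in shCtrl. The whole TRIM28 lists called against input held 203714 peaks in shARID1A and 70447 in shCtrl. Those called against IgG held 281182 and 264115. The 37 shCtrl SETDB1 peaks lay inside a HOX body in 21 cases, within 1 kb of one in 6 and between HOX genes in 10, against 5, 1 and 4 of the 10 shARID1A SETDB1 peaks.

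Strong peaks of all lists merged into 62 sites, of which 39 lay in a HOX body, 7 within 1 kb of one and 16 between HOX genes. The HOXA cluster held 23, HOXB 20, HOXC 12 and HOXD 7. H3K9me3 was strong at 24 sites in shARID1A and 2 in shCtrl, TRIM28 at 8 in shARID1A and none in shCtrl, SETDB1 at 8 in shARID1A and 39 in shCtrl, and ARID1A at 3 in shCtrl. All 7 HOXD sites came from shCtrl SETDB1 alone. Folds at these sites take few values in some lists: 6 of the 8 shARID1A SETDB1 sites had the same fold of 4.10 against IgG.

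**Figure D3:**
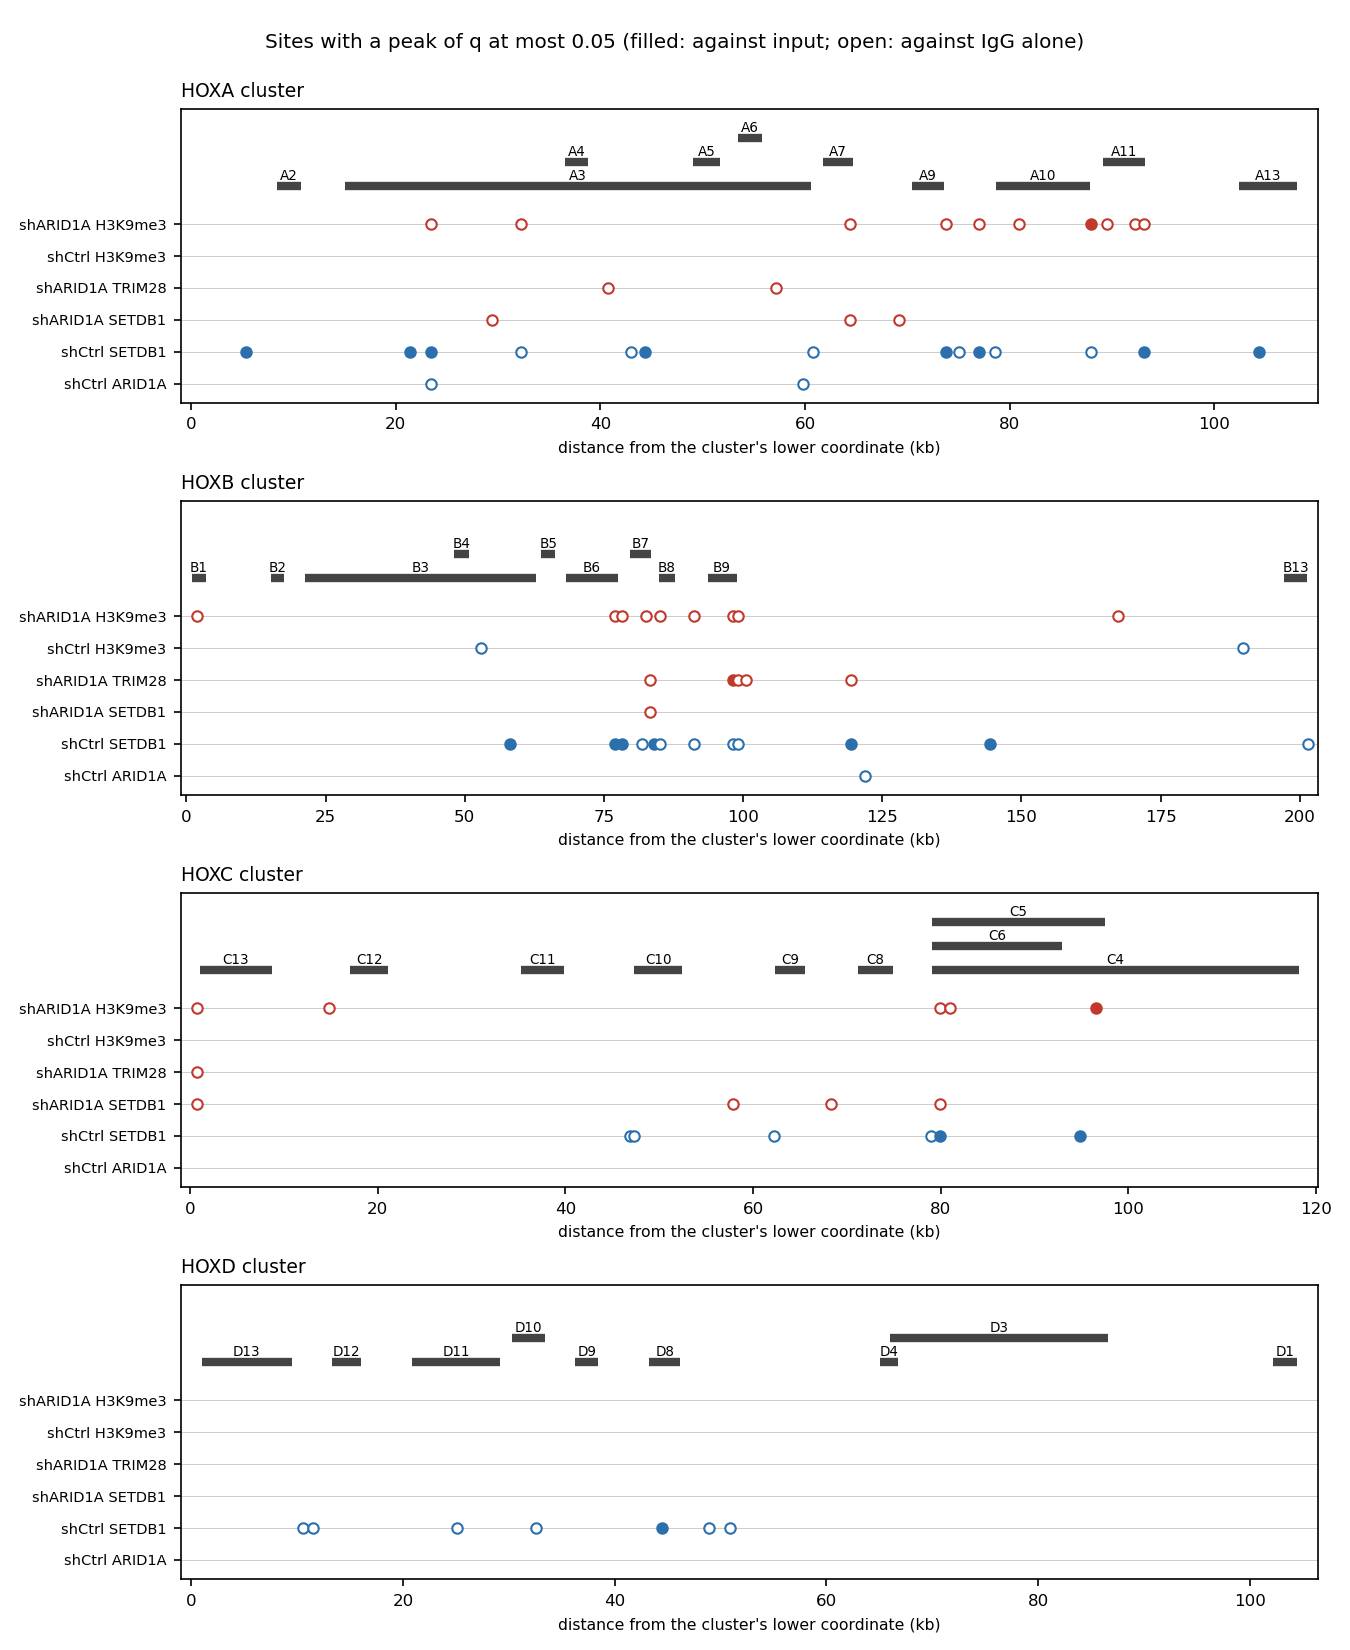
Strong sites along the 4 clusters, by library (rows of points) and distance from the cluster's lower coordinate in kb (x axis), with the bodies of HOX genes reported by name as dark bars; filled points are strong against input and open points against IgG alone. The HOXD panel shows 7 points, all in the shCtrl SETDB1 row, and the row of shARID1A SETDB1 holds no filled point.

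Several strong sites were shared. In all, 17 of the 62 sites were strong in at least 2 libraries, 7 in HOXA, 8 in HOXB, 2 in HOXC and none in HOXD. Some of these pairs are libraries of the same cell state, which are taken to share their controls, so the number is a description of the sites and no measure of shared binding. shARID1A H3K9me3 shared 13 of its 24 sites with the 39 of shCtrl SETDB1, and these 2 libraries have no control in common. shARID1A SETDB1 shared 1 of its 8 sites with the 39 of shCtrl SETDB1, where 36% of the strong peaks of the whole shARID1A list against IgG overlapped a strong shCtrl one. By peak the share in the clusters was 12.5% (0.316 to 52.7). shARID1A H3K9me3 shared none of its 24 with the 2 of shCtrl H3K9me3 (an upper bound of 14.2% by peak), where 10.1% of the whole list did. Peak by peak, against IgG, 12 of 24 strong shARID1A H3K9me3 peaks in the clusters (50.0%, 29.1 to 70.9) overlapped a strong shCtrl SETDB1 peak, where 49.5% of the whole list did. In the other direction it was 12 of 40 (an interval of 16.6% to 46.5%), where 30.3% of the whole list did, so the clusters lay at the level of the whole lists. Against input none of the 2 and none of the 17 strong peaks overlapped, where 53.5% and 17.2% of the whole lists did.

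Of the shared sites, 5 were strong in 3 libraries, among them the HOXA3 site of the tallest peak described above. A site is a merge of overlapping strong peaks, so the peaks of its libraries need not all overlap each other. At the HOXA3 site the strong shCtrl ARID1A peak (chr7:27115664-27115973) did not overlap the shCtrl SETDB1 peak against IgG (chr7:27115025-27115532). The part of a shared IgG control in peaks common to libraries of 1 cell state was not tested. At the HOXC13 start (chr12:53938155-53938846) all 3 shARID1A libraries were strong against IgG, with 4.55 for H3K9me3, 4.71 for TRIM28 and 4.10 for SETDB1, against 2.69 for shCtrl H3K9me3 and no other shCtrl peak. At HOXB9 a pair of sites (chr17:48625438-48625896 and chr17:48626161-48627090) was strong for shARID1A H3K9me3, shARID1A TRIM28 and shCtrl SETDB1. Beside the HOXC4, HOXC5 and HOXC6 start (chr12:54017188-54018434) shARID1A H3K9me3, shARID1A SETDB1 and shCtrl SETDB1 were strong at 3.64, 4.10 and 3.72 against IgG. There the H3K9me3 peak (chr12:54018009-54018275) did not overlap the shCtrl SETDB1 peak (chr12:54017188-54017868). The HOXA7 site (chr7:27155917-27156778) was strong for shARID1A H3K9me3 (4.55) and shARID1A SETDB1 (4.10) and had no shCtrl SETDB1 peak, and the shARID1A TRIM28 peak there measured 3.29.

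**Figure D4:**
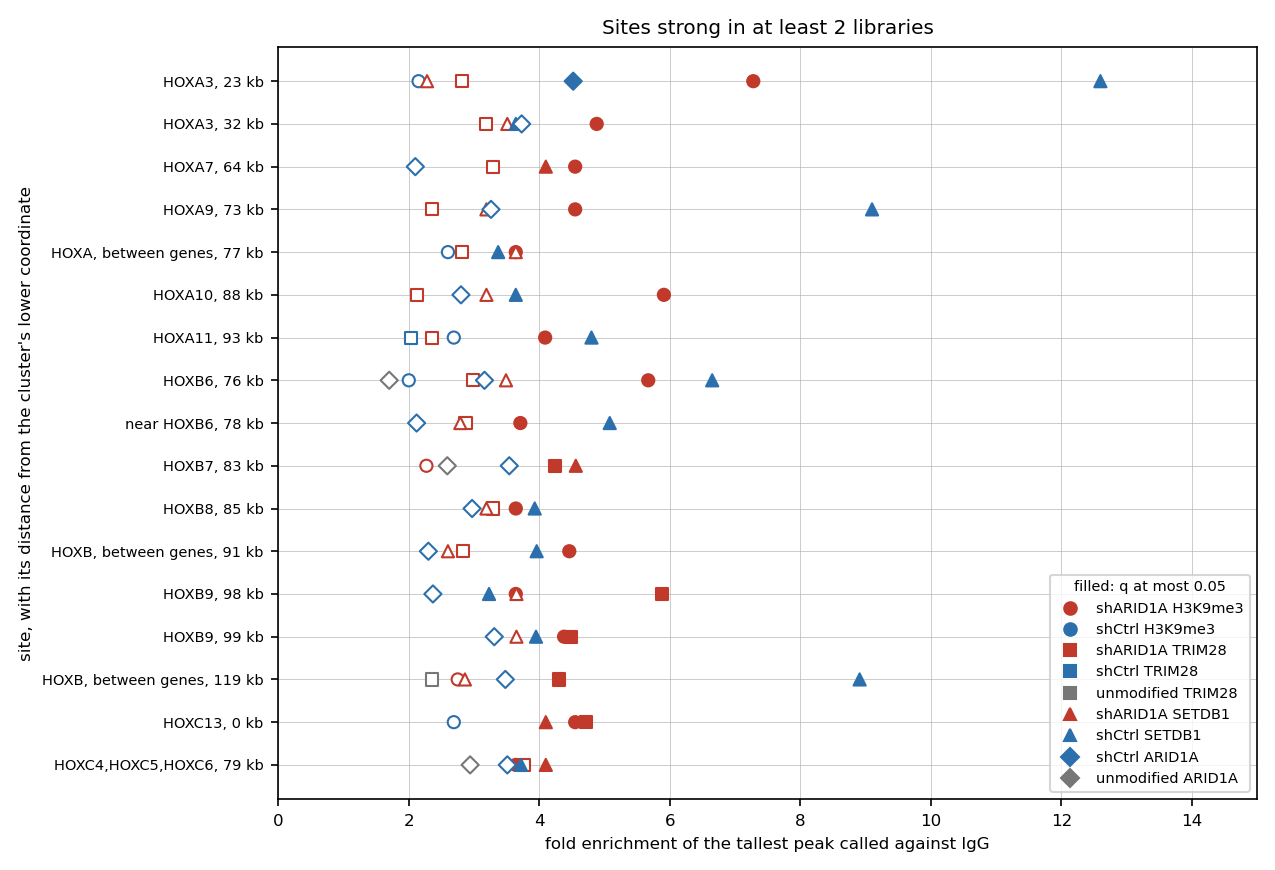
Fold enrichment against IgG (x axis) at the 17 sites strong in at least 2 libraries (rows, named by the HOX genes they overlap and their distance from the cluster's lower coordinate); shape gives the antibody, colour the cell state (red shARID1A, blue shCtrl, grey unmodified), and filled symbols are strong. shCtrl SETDB1 reaches 12.6 at a HOXA3 site, where shARID1A H3K9me3 is at 7.28.

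By position in the body plan, genes were taken as anterior (paralog groups 1 to 4), central (5 to 8) or posterior (9 to 13). Strong shCtrl SETDB1 peaks against input were found at 3 of 12 anterior, 6 of 11 central and 3 of 16 posterior genes (43.5% of all genes). The central genes are not all separate hits. HOXB7 and HOXB8 shared 1 peak (chr17:48611396-48611636), and HOXC5 and HOXC6 another (chr12:54017451-54017722), which also counted for the anterior HOXC4. Against IgG the counts were 3, 7 and 11 (58.1% of all genes). In shARID1A SETDB1 they were 0, 0 and 0 against input (3.91% of all genes) and 2, 4 and 2 against IgG (19.8%). Strong shARID1A H3K9me3 peaks against IgG were found at 3 anterior, 6 central and 5 posterior genes (48.3% of all genes). For shCtrl H3K9me3 it was 1, 0 and 0 (22.8% of all genes). Genes with no strong peak in any list included the anterior HOXA2, HOXA4, HOXB2, HOXB4, HOXD1, HOXD3 and HOXD4, the central HOXA5, HOXA6, HOXB5 and HOXC8, and the posterior HOXC11, HOXC12, HOXD9 and HOXD12.

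The long gap between HOXB9 and HOXB13 (98.4 kb), which holds long noncoding RNAs such as LINC02086, carried peaks of its own. shARID1A SETDB1 had no peak there against input, and shCtrl SETDB1 had 5, 2 of them strong. Against IgG the order of the counts turned round, with 17 peaks in shARID1A, none strong, and 6 in shCtrl, 3 of them strong. At the tallest merged site (chr17:48646288-48647365) shARID1A SETDB1 measured 2.86 against IgG. There shCtrl SETDB1 measured 5.57 against input (chr17:48647032-48647342) and 8.91 against IgG. In the same merged site shARID1A TRIM28 was 2.86 against input (chr17:48646335-48646603) and 4.30 against IgG (chr17:48646288-48647016), the second of these strong. Neither TRIM28 peak overlapped the shCtrl SETDB1 peak called against input, and shCtrl TRIM28 had no peak in the merged site. HOXB13 itself had no peak against input in any library and 1 strong peak, shCtrl SETDB1 against IgG, in its flank.

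The noncoding genes of the clusters, 26 in the list used, shared these sites. Against input 4 of the 26 had a SETDB1 peak in shARID1A cells (43.7% of all genes), against 7 in shCtrl cells (58.7%). A strong one was at none in shARID1A (3.91% of all genes) and at 6 in shCtrl (43.5%). Against IgG the order turned round, with 20 in shARID1A (83.6% of all genes) and 14 in shCtrl (71.7%). Strong peaks against IgG were at 4 in shARID1A (19.8% of all genes) and 11 in shCtrl (58.1%). Of the microRNAs in the clusters, MIR196B and MIR615 had strong peaks against input within 1 kb. MIR196B lies between HOXA9 and HOXA10 and had, against IgG, a strong shARID1A H3K9me3 peak 193 bp away (3.64) and, against input, a strong shCtrl SETDB1 peak 221 bp away (4.30). MIR615 lies within HOXC5 and had the strong shARID1A H3K9me3 peak 237 bp away (4.22) and the tall shCtrl SETDB1 peak 961 bp away (7.28). Mature sequences are shown from RefSeq with the seed, bases 2 to 8, in capitals, and miR-196a, made from copies in HOXB and HOXC, beside miR-196b for its shared seed.
miR-196b-5p: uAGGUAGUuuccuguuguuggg
miR-196a-5p: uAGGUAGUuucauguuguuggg
miR-615-5p: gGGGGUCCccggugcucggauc
miR-615-3p: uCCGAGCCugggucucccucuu
miR-196 is known to target HOXB8 transcripts, and it shares its seed AGGUAGU between both forms. The copies of miR-196a had no strong peak within 1 kb in any list.

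Related gene lists give the scale. Over all genes the SETDB1 shares against input, to be set beside each list here, were 43.7% in shARID1A and 58.7% in shCtrl. Of 71 homeobox genes outside the clusters (median length 6801 bp), 20 had a SETDB1 peak against input in shARID1A cells, against 21 in shCtrl cells. A strong one was at 1 in shARID1A (3.91% of all genes) and at 17 in shCtrl (43.5%). TRIM28 had a peak at 40 of the 71 in shARID1A cells (72.4% of all genes) and 17 in shCtrl cells (40.4%). H3K9me3 had one at 16 in shARID1A and 18 in shCtrl (46.8% of all genes in both). Of 21 Polycomb and trithorax regulators (median length 21909 bp), 12 had a SETDB1 peak in shARID1A cells against 11 in shCtrl cells. Among them were KMT2B (7.21), a trithorax methyltransferase, in shARID1A, against KDM6B (10.5), a demethylase of H3K27me3, and KMT2D (5.50) in shCtrl. The 9 TALE cofactors, partners that bind DNA with HOX proteins, had a median length of 138745 bp. Of them 4 had a SETDB1 peak in shARID1A cells against 6 in shCtrl cells. PBX3 (4.44) was the tallest in shARID1A and PKNOX2 (6.34) in shCtrl. Of 5 CDX and EVX genes, regulators and neighbours of the clusters, 2 had a SETDB1 peak in shARID1A and 1 in shCtrl. HOX genes had a median length of 3785 bp, so these shares are not matched for length. Against IgG each list had more genes with a SETDB1 peak in shARID1A than in shCtrl, as all genes did (83.6% against 71.7%). The counts were 49 against 25 homeobox genes, 19 against 12 regulators, 8 against 7 cofactors and 3 against 2 CDX and EVX genes.

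Promoter windows (250 bases before to 50 after a RefSeq start) were at hand for 20 of the 39 genes. They describe mostly HOXA, with several windows for HOXA3, and HOXD. HOXB had a window for HOXB1 alone, and HOXC one for the shared start of HOXC4 and HOXC5. The 26 distinct windows of the 20 genes had a median GC content of 58.0%, ranging between 43.7% and 76.3%, against 58.7% over all 34789 windows. Their median was 22.5 CpG dinucleotides against 14.0. The motif TGATTNAT, a form of the site bound by HOX and PBX proteins together, was searched on both strands. It was found in 2 of 26 windows (7.69%), at HOXA2 and HOXD11, against 2.83% of all windows. Strong peaks against input overlapped none of the 26 windows for shARID1A SETDB1 (1.31% of all windows), 2 for shCtrl SETDB1 (7.69%; 9.47% of all windows) and 1 for shARID1A H3K9me3 (3.85%; 1.70% of all windows). Against IgG strong shARID1A SETDB1 peaks overlapped 1 (3.85%; 6.59% of all windows), strong shCtrl SETDB1 peaks 5 (19.2%; 15.3%) and strong shARID1A H3K9me3 peaks 4 (15.4%; 13.3%). A motif match is a description of the letters in the window.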

How the data were processed

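ChIP-seq of 10 precipitated libraries in 3 cell states was deposited as narrowPeak lists, 1 against input and 1 against IgG per library. The submitters' processing notes name the peak caller MACS2 2.2.7.1, the aligner Bowtie2 2.2.5, ChIPseeker for annotation, FastQC 0.11.9 and deepTools 3.5.1, on GRCh38 (hg38). The options of these tools are not stated in the sources. Peaks were called per library. The deposited fold enrichment, a ratio, and the deposited −log10 p and −log10 q values are the authors'. No separate lists of the 6 control samples were used here. For H3K9me3 and TRIM28 the antibody product in the labels' protocol differs from that in the sample characteristics.

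Only the autosomes and the X chromosome were used, with 1-based starts. A peak was called strong here at a q of at most 0.05. A gene had a peak if at least 1 bp of a peak fell in its body extended by 1 kb. The main list was that called against input. Libraries from the same cells were assumed to have common controls, so where several are strong at 1 site their values are set side by side as a description, and no share of peaks common to them is given. The genome's length for densities was that of all 10000 bp windows in which any of the lists has a peak, 2.67 Gb. Strong sites are overlapping strong peaks of any list merged. RefSeq on GRCh38.p14 gave gene positions (with no strand or exons) and the promoter and microRNA sequences. Python 3.11.15, pandas 2.3.3, NumPy 2.4.6, SciPy 1.17.1 and matplotlib 3.10.9 were used, and the overlap counts were tested on simulated peaks.

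The members, the related gene lists and the tests were chosen with earlier results of these data known. Genes named with values are every HOX gene with a strong peak in any list and, per library, the 3 HOX genes with the highest fold against input; from each related list at most 2 genes with the highest fold are named. Some genes are counted but not reported by name here. The single sites described, and the comparison of shARID1A H3K9me3 with shCtrl SETDB1 peaks, were chosen after their values were seen. Sequencing depth was not stated, and list lengths differ between cell states. Alternatives tried were the IgG list, strong peaks, the 10000 most significant peaks, peaks found against both controls, no gene extension, one of 5 kb, and, for peaks found again, a cover of 50%.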

Additional observations from a re-analysis of the deposited data

How the results depend on the processing

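Alternatives covered the control, the threshold, the gene extension and the overlap. No paired analysis was possible because each group has 1 library and the labels carry no replicate numbers. No library was left out, since each group has a single one. Of 89 alternative values, 41 lay within the main value's counting interval or within 1.5 times it, 46 did not and 2 changed sign. For differences in gene counts that interval, not printed here, was Newcombe's for 2 independent shares. It ignores that the same HOX genes are counted in both states. Where a value moved, the cause was not tested.

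The sign changed with the IgG lists for 2 differences in the number of HOX genes with a peak, shARID1A minus shCtrl: TRIM28 gave -2 in place of 10, and SETDB1 gave 6 in place of -13. In the IgG lists the shCtrl minus unmodified differences were 21 for ARID1A (7 against input), 21 for H3K9me3 (9) and 24 for TRIM28 (5). Shares of shCtrl cluster peaks found again in shARID1A were 33.3% for H3K9me3 and 47.7% for SETDB1. Peaks per 100 kb were 26.9 for shARID1A and 12.3 for shCtrl and 0.560 for unmodified H3K9me3; 21.1, 14.0 and 2.61 for TRIM28 in the same order; 23.5 for shARID1A and 12.1 for shCtrl SETDB1; 26.5 for shCtrl and 4.66 for unmodified ARID1A.

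With strong peaks alone the TRIM28 difference, shARID1A minus shCtrl, was 1 and the H3K9me3 difference, shCtrl minus unmodified, 0. SETDB1 peaks found again were 0% of 17. No share was available for H3K9me3 and TRIM28, which had no strong shCtrl peak in the clusters. Densities per 100 kb were 0.373 for shARID1A H3K9me3, 0.187 for shARID1A TRIM28 and 3.17 for shCtrl SETDB1, and 0 for the other libraries.

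With the 10000 most significant peaks of each list the differences were 0 for TRIM28 and -2 for SETDB1, shARID1A minus shCtrl, and 1 for H3K9me3, shCtrl minus unmodified, and 0% of the few shCtrl cluster peaks of H3K9me3, TRIM28 and SETDB1 were found again. Densities were 0.187 for shARID1A and shCtrl H3K9me3; 0.560 for shARID1A, 0.187 for shCtrl and 0.373 for unmodified TRIM28; 0.560 for shARID1A and 0.746 for shCtrl SETDB1; 0.933 for shCtrl and 0.746 for unmodified ARID1A. With bodies extended by 5 kb the TRIM28 difference was 19, shARID1A minus shCtrl, and the H3K9me3 difference 15, shCtrl minus unmodified. Peaks found against both controls gave 2.24 per 100 kb for shCtrl H3K9me3, and a cover of 50% left 0% of shCtrl SETDB1 peaks found again. What sequencing depth limits was not measured, since these files do not give it.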
